A study of Bos taurus with 129 samples.

Results

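Peripheral blood mononuclear cells (PBMC) of cows with a failing pregnancy (embryo mortality, EM) were compared with those of non-pregnant (NP) cows at day 16, across every gene of the deposited count table. The comparison holds all 6 EM and all 7 NP libraries of the PBMC experiment that the labels name E2, which was read as single ends of 75 bp, 13 of its 22 libraries. The group label of 1 EM library is abbreviated where the other EM libraries have it in full. The other 9 came from cows with a normal conceptus (N). These shared the estimate of the spread and are given for reference. The study describes healthy lactating multiparous Holstein cows, bred after Ovsynch synchronisation by timed insemination with semen of a single sire, with day 0 as the day of insemination. In its account a conceptus flushed at day 16 was called N when translucent and elongated, and EM when pink, red or opaque or short. EM is therefore a call on the appearance of the conceptus. Neither the labels nor the methods read here say how the NP cows were bred and handled, and no treatment or genotype separates the groups. Each library has its own number and none is said to share a cow with another, but the labels do not name the cows, so the p-values measure the spread between these libraries.

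PBMC are the T cells, B cells, natural killer cells, monocytes and dendritic cells that remain when blood is freed of most red cells and granulocytes. In ruminants the elongating conceptus secretes interferon tau (IFNT) from its trophectoderm, which tells the mother that she is pregnant. IFNT acts through the type I interferon receptor and the transcription factors it activates, and it induces interferon-stimulated genes (ISG) in the uterus and, as it or the cells it has met pass into the blood, in circulating leukocytes. The level of ISG in blood cells is therefore widely used as an early sign of pregnancy in cattle.

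The libraries held 10706764 to 16504085 counts in EM, 11147738 to 18285148 in NP and 12343279 to 14731971 in N. Exact two-sided permutation tests of EM against NP over 1716 splits gave p = 0.666 for the total and p = 0.416 for the number of genes with at least 1 count. Levels are given as CPM, each library's counts scaled to a common total with TMM factors. Markers of T cells, B cells, natural killer cells and monocytes were present in every library, and 17 trophoblast genes in the table, among them the IFNT genes and the trophoblast Kunitz proteins, summed to at most 2.7 CPM in any library. Some libraries stood apart by their cell markers. EM replicate S103 had the lowest summed level of 25 T cell markers (683 CPM, against 1150 to 3570 CPM in the other EM and 1210 to 3720 CPM in the NP libraries) and the highest of 21 B cell markers (8780 CPM). EM replicate S99 had the highest summed level of the granulocyte markers (7630 CPM, against at most 2780 CPM in the other EM and 3520 CPM in the NP libraries). EM replicate S95 and NP replicate S87 also had low T cell sums (1150 and 1210 CPM) and high B cell sums (8150 and 7960 CPM). The monocyte and granulocyte sums of S87 (2570 and 531 CPM) lay below those of S103 (2830 and 599 CPM). In bulk RNA fewer cells of a type and less RNA per cell cannot be told apart.

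No gene differed between EM and NP by the edgeR quasi-likelihood test at a Benjamini-Hochberg adjusted p of 0.05, 0 of 16269 genes tested (0% called), and the smallest adjusted p was 0.9998. At an unadjusted p under 0.05 there were 138 genes higher in EM (0.848% of genes tested) and 140 lower (0.861%). Together these were 1.71% of genes tested, below the share of 0.05 expected on average if no gene differed. DESeq2 called 0 genes as well, with 332 genes at an unadjusted p under 0.05, and limma voom with sample weights called 0, with 539. Leaving out EM replicate S103 brought 520 genes to an unadjusted p under 0.05 with edgeR, 320 of them higher in EM, and still called 0. The shares of genes tested were 2.04% for DESeq2, 3.31% for limma voom and 3.16% without S103, each below 0.05 as well. The data limited how large a difference could remain unseen. The 95% interval of the log2 fold change lay within a 2-fold change in either direction for 12869 genes (79.1%), and within a 1.5-fold change for 8772 (53.9%). Of 2259 genes at 100 CPM or above, 93.7% had an interval within 2-fold, and of 1245 genes under 1 CPM, 33.3%. The median standard error was 0.20 on the log2 scale. Values and intervals are therefore described in what follows, and no gene is called changed.

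Over 33 lists of PBMC genes with at least 3 tested members, 26 had a positive median log2 fold change (higher in EM) and 7 a negative one. The median over all genes was 0.00, with quartiles of -0.10 and 0.10, and 50.9% of all genes were positive. The highest medians were those of platelet markers (0.44), ISG (0.36), granulocyte markers (0.30) and cell cycle genes (0.26), and the lowest that of gamma delta T cell markers (-0.19). Only 12 lists kept the sign of their median whichever of the 13 libraries was left out. Of 676 tested genes on the lists, 12 had an unadjusted p under 0.05 (1.78%), beside 1.71% of all genes tested.

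**Figure D1:**
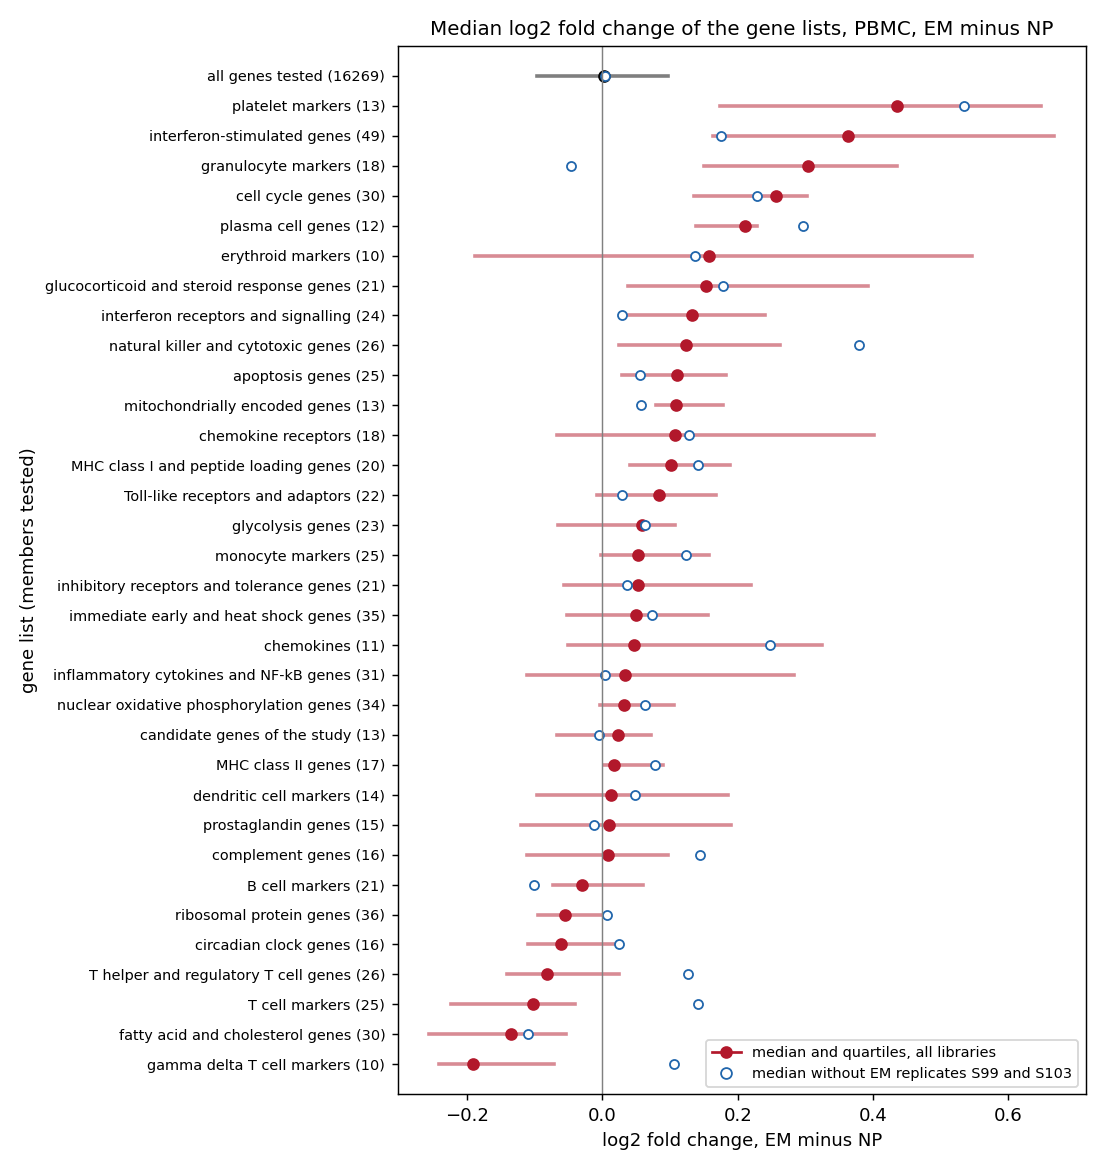
Median log2 fold change (EM minus NP) of each gene list on the x axis, with the number of tested members after its name; filled points are medians over all libraries, lines join the quartiles over genes, and open points are medians without EM replicates S99 and S103. The ISG median moved from 0.36 to 0.18 and the granulocyte median from 0.30 to -0.05 without these libraries, while the platelet median was 0.44 with them, 0.53 without both, 0.24 without S99 alone and 0.68 without S103 alone. Every NP library was kept in these fits.

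Nearly every ISG averaged higher in EM, and much of the excess lay in 1 library. Of 49 tested ISG 46 had a positive log2 fold change and 3 a negative one, 0 passed the test, and 2 had an unadjusted p under 0.05. Their summed level ran from 3260 to 8900 CPM in EM (median 4130), from 2970 to 4170 CPM in NP (median 3690) and from 3420 to 18100 CPM in N (median 5340). EM replicate S99 carried the highest EM value in 36 of the 49 genes. Without it 40 of 49 were positive and the median was 0.14, and without S103 it was 0.47. S99 was also the EM library with the highest granulocyte markers, S100A8, a calgranulin of neutrophils and monocytes, being 845 CPM there and 52.6 to 311 CPM in the other EM libraries. The part of this in the ISG values was not tested.

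ISG15, a ubiquitin-like protein joined to other proteins after interferon exposure, was at 13.6, 15.8, 12.6, 6.21, 48.8 and 4.11 CPM in EM replicates S88, S90, S92, S95, S99 and S103. In NP it ran from 2.42 to 12.7 CPM with a median of 4.27. Of the EM libraries 3 lay above the highest NP library and none below the lowest, so the groups overlapped. The log2 fold change was 1.61 with a standard error of 0.92 and a 95% interval of -0.30 to 3.52 (adjusted p = 0.9998 from edgeR), and 0.95 without S99. OAS1X, an oligoadenylate synthetase that activates RNA decay in infected cells, was at 48.1, 40.1, 25.7, 11.4, 130 and 29.6 CPM in the same EM libraries and at 5.14 to 33.5 CPM in NP (median 13.98). Its log2 fold change was 1.56 with a standard error of 0.64 (unadjusted p = 0.0236, adjusted p = 0.9998 from edgeR), and 0.96 without S99. The OAS1 genes are near copies of each other, so the split of reads among them is uncertain.

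OAS1Y had a log2 fold change of 1.31 (95% interval -0.21 to 2.83) and OAS1Z one of 1.08. HERC5, in humans the ligase that attaches ISG15 to its targets, was at 37.2 to 47.6 CPM in 5 EM libraries and at 129.7 CPM in S99, against 32.6 to 44.7 CPM in NP. Its log2 fold change was 0.66 with S99 and 0.27 without. The MX genes encode antiviral GTPases. MX2 ran from 70.3 to 331 CPM in EM (median 105.9) and from 60.1 to 95.5 CPM in NP (median 72.8), with a log2 fold change of 0.89 and 0.44 without S99. MX1 ran from 186 to 431 CPM in EM and from 147 to 372 CPM in NP, with a log2 fold change of 0.28 (95% interval -0.43 to 1.00), and its highest EM value was that of S103, not S99. RSAD2, which blocks viral budding and RNA synthesis, was at 1.48 to 31 CPM in EM and 2.95 to 9.36 CPM in NP (log2 fold change 0.95, standard error 0.86). IFI6, a mitochondrial survival protein, was at 12.7 to 26.9 CPM in EM and 10.6 to 16.0 CPM in NP, and 4 of the 6 EM libraries lay above every NP library. IFI44 showed the same count, 4 of 6, with a log2 fold change of 0.70 and a standard error of 0.55.

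**Figure D2:**
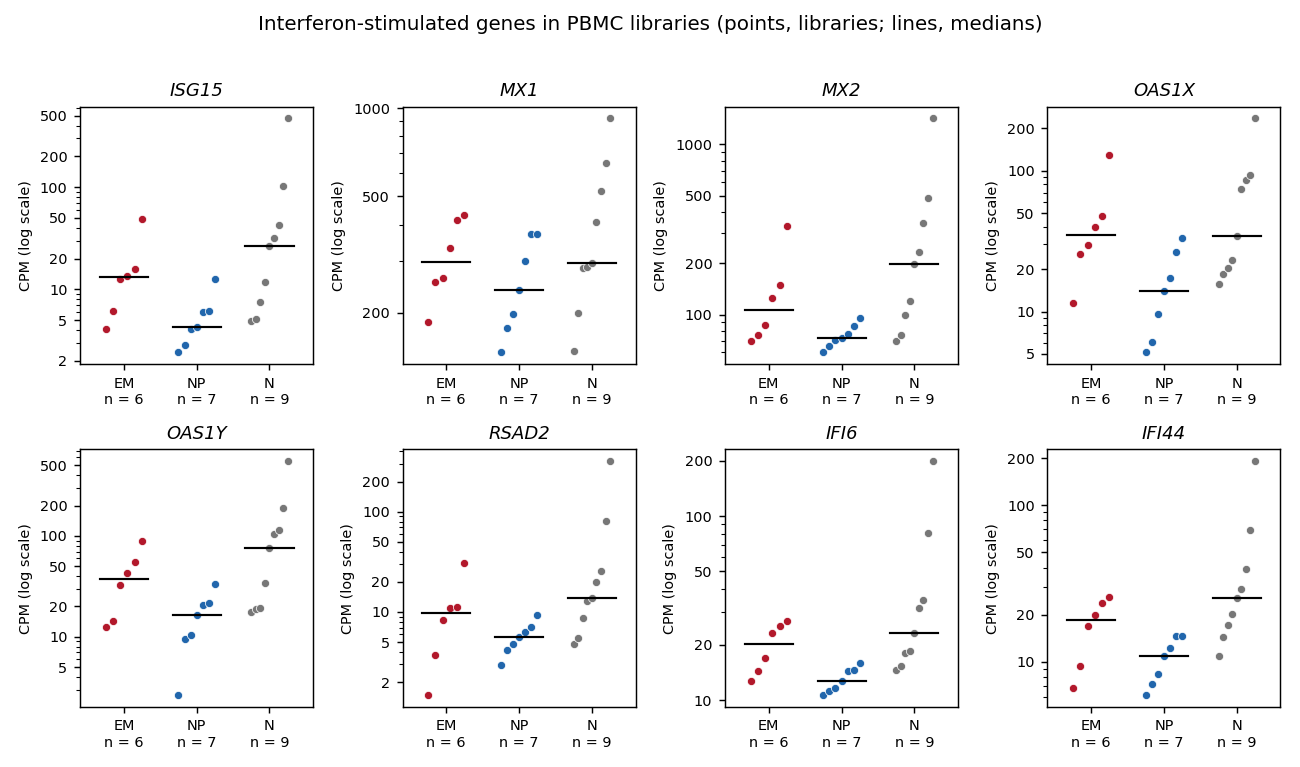
Levels of 8 ISG in CPM (log scale) by group; each point is a library (6 EM, 7 NP, 9 N) and the line is the median. EM and NP overlapped for each of the 8 genes, with ISG15 at 4.11 to 48.8 CPM in EM and 2.42 to 12.7 CPM in NP.

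The same genes were spread more widely among N libraries. ISG15 ran from 4.91 to 472 CPM in N with a median of 26.8, MX2 from 70.03 to 1419 CPM with a median of 199, and OAS1Y from 17.5 to 552 CPM with a median of 76.2. The N minus NP contrast uses the same NP libraries as the EM minus NP contrast. Side by side, the log2 fold changes of EM minus NP and of N minus NP were 1.61 and 3.84 for ISG15, 0.89 and 2.16 for MX2, 1.31 and 2.92 for OAS1Y, and 0.28 and 0.68 for MX1. The list median was 0.36 in the former and 0.80 in the latter. The N minus NP contrast also called 0 genes (smallest adjusted p 0.643 from edgeR), as did EM minus N (smallest adjusted p 0.999), so an order of the groups is not shown by these tests.

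Among 24 genes of interferon receptors and signalling 19 were positive and 5 negative, with a median of 0.13. Without S99 12 were positive. SOCS1, a feedback inhibitor of cytokine signalling, had a log2 fold change of 0.81 (unadjusted p = 0.0495, adjusted p = 0.9998 from edgeR), at 0.329 to 5.80 CPM in EM and 1.26 to 2.30 CPM in NP. IRF9, a transcription factor of the type I response, had a log2 fold change of 0.25, and IRF7, which amplifies type I interferon, one of 0.24 with a standard error of 0.39.

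The lineage markers of lymphocytes overlapped between EM and NP. Of 25 T cell markers 5 were positive and 20 negative, with a median of -0.10 that turned to 0.11 without S103. CD3E, a chain of the T cell receptor complex, was at 29.95 to 250 CPM in EM (median 143) and 79.7 to 258 CPM in NP (median 134), and S103 and S95, at 29.95 and 50.8 CPM, lay below every NP library. Its log2 fold change was -0.11 (95% interval -0.89 to 0.67), and it turned to 0.11 without S103. CD4, the co-receptor of helper T cells, was at -0.21 and CD8A, that of cytotoxic T cells, at 0.29, with standard errors of 0.36 and 0.47. LEF1, CCR7 and TCF7, which mark naive and central memory T cells, had the smallest p values on the list and log2 fold changes of -0.74, -0.36 and -0.44. LEF1 was at 17.7 to 167 CPM in EM and 60.2 to 215 CPM in NP, and its 2 lowest EM values were those of S103 and S95.

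The 21 B cell markers had 7 positive and 14 negative members, all within -0.14 to 0.18 on the log2 scale. Without S99 16 were positive, and without S103 2 were. CD79A, a signalling chain of the B cell receptor, was at 198 to 558 CPM in EM and 248 to 554 CPM in NP, and MS4A1 (CD20) had a log2 fold change of -0.02 (95% interval -0.50 to 0.45). The plasma cell genes were positive in 11 of 12, with a median of 0.21 that was 0.04 without EM replicate S90 and 0.32 without NP replicate S104. PRDM1, the factor that drives plasma cell formation, was at 11.3 to 71.8 CPM in EM and 14.9 to 53.1 CPM in NP (log2 fold change 0.52, standard error 0.35). Among 10 gamma delta T cell markers, a population that is large in cattle blood, 2 were positive and 8 negative, and their median of -0.19 was 0.16 without NP replicate S104. CD163L1, of the WC1 family, was at 3.78 to 43.9 CPM in EM and 4.62 to 91.98 CPM in NP, a range within each group far wider than the difference between their medians (9.92 and 23.1 CPM).

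Of 26 natural killer and cytotoxic genes 20 were positive, with a median of 0.12. Leaving out 1 library moved it from -0.06, without EM replicate S92, to 0.31, without S103, and it was 0.38 without S99 and S103. GZMB, a granule protease that kills target cells, was at 8.22, 17.4, 22.2, 12.6, 26.1 and 1.40 CPM in EM replicates S88, S90, S92, S95, S99 and S103 and at 3.63 to 13.2 CPM in NP. There were 3 EM libraries above every NP library and S103 was below every one, and the log2 fold change was 0.94 with a standard error of 0.47. KLRG1, an inhibitory receptor of mature cytotoxic cells, had one of -1.002 with a standard error of 0.59. NCR1, the receptor that defines natural killer cells, was at -0.03 (standard error 0.33) and PRF1, the pore-forming perforin, at 0.10.

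Monocyte and granulocyte markers varied widely among the libraries of each group. Of 25 monocyte markers 18 were positive, and their summed level ran from 2830 to 9610 CPM in EM and from 2570 to 9380 CPM in NP. Their median was 0.05, but without S99 it was -0.06 with 9 of 25 positive, and without S103 it was 0.21 with 24 positive. CD14, the endotoxin co-receptor of monocytes, was at 32.7 to 127.7 CPM in EM and 22.02 to 93.8 CPM in NP (log2 fold change 0.34, standard error 0.36). Of 18 granulocyte markers 16 were positive with a median of 0.30, but without S99 only 6 were positive and the median was -0.26. S100A9, the partner of S100A8, was at 102.1 to 473 CPM in 5 EM libraries and 1264 CPM in S99, with 73.9 to 624 CPM in NP. The median of S100A8 was lower in EM (220 CPM) than in NP (308 CPM) although its fitted log2 fold change was positive (0.27, standard error 0.51).

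Dendritic cell markers were divided 7 to 7. LILRA4, a receptor of plasmacytoid dendritic cells, which are the main blood source of type I interferon, was at 2.49, 7.11, 2.50, 0.720, 6.14 and 4.85 CPM in EM. In NP it was at 27.8, 18.3 and 21.3 CPM in S93, S104 and S106 and at 1.94 to 3.84 CPM in the other 4. All EM libraries thus lay in the range of those 4 NP libraries or between them and the 3 high ones, except S95, which was below. Its log2 fold change was -1.51 with a standard error of 0.65 (unadjusted p = 0.0295, adjusted p = 0.9998 from edgeR). SIGLEC1, a sialic acid receptor that interferon induces in monocytes, was at 1.35 to 11.9 CPM in EM and 0.895 to 3.92 CPM in NP.

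Genes of cells that a PBMC preparation should contain few of were measured as well. Platelet markers were positive in 11 of 13, and in 10 of 13 without S99, with summed levels of 519 to 3950 CPM in EM (median 3120) and 742 to 3500 CPM in NP (median 2120). GNG11, a G protein subunit abundant in platelets, had a log2 fold change of 0.88 with a standard error of 0.60, and was at 4.85 CPM in S103 and at 84.7 to 451 CPM in the other EM libraries, against 42.4 to 227 CPM in NP. PPBP, a platelet chemokine precursor, was at 0.83 with a standard error of 0.65, with 0.247 CPM in S103 and 8.37 to 57.5 CPM in the other EM libraries. Of 10 erythroid markers 6 were positive and 4 negative, with a median log2 fold change of 0.16. ALAS2, one of them, was at 0.87 with a standard error of 0.62. AHSP, another, was near the floor, at 0.232 to 1.16 CPM in EM and 0.413 to 0.940 CPM in NP. Its log2 fold change was -0.44 with a standard error of 0.33. The summed erythroid markers had a median of 211 CPM in EM and of 145 CPM in NP. The highest sums were 386 CPM in EM and 214 CPM in NP. Much of the sum was HBB, at 250.5 of the 386 CPM in EM replicate S90. HBB, the beta globin chain, was at 3.46 CPM in S103 and at 44.4 to 251 CPM in the other EM libraries, against 35.03 to 125.6 CPM in NP.

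**Figure D3:**
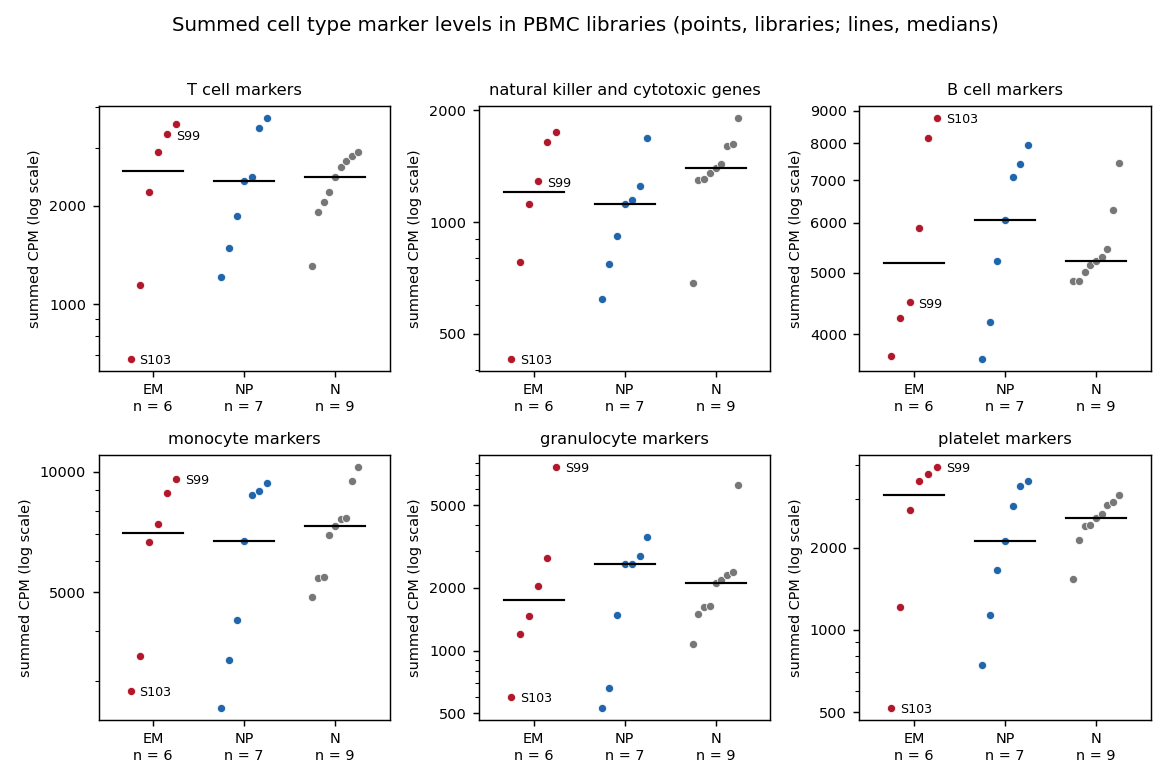
Summed CPM (log scale) of 6 cell type marker lists by group; each point is a library (6 EM, 7 NP, 9 N), the line is the median, and EM replicates S99 and S103 are named. S103 was the lowest EM library for T cell markers (683 CPM) and the highest for B cell markers (8780 CPM), and S99 the highest for granulocyte markers (7630 CPM).

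The title of the series names a T helper response. Of 26 T helper and regulatory T cell genes 9 were positive and 17 negative, with a median of -0.08 that became 0.05 without S103. IL12RB2, the receptor chain that commits T cells to the type 1 fate, was at 9.63 to 23.6 CPM in EM (median 19.3) and 5.27 to 15.1 CPM in NP (median 12.01). Of 6 EM libraries 4 lay above every NP library, and the log2 fold change was 0.65 with a standard error of 0.27 (unadjusted p = 0.0270, adjusted p = 0.9998 from edgeR). Among the factors that set T cell lineages, TBX21 (type 1) had a log2 fold change of 0.14 (standard error 0.19), GATA3 (type 2) one of -0.05 (0.38), and FOXP3 (regulatory) one of -0.53 (0.36). TBX21 was highest in EM in S103 and S95 (220 and 197 CPM), the EM libraries with the lowest CD3E and the highest MS4A1. In NP it was at 196 CPM in S87, where MS4A1 was at 1619 CPM, and at 83.2 CPM in S104, where MS4A1 was at 594 CPM. The part of B cells in the TBX21 values was not tested. FOXP3 was at 0.630 to 4.53 CPM in EM and 2.04 to 5.74 CPM in NP. CXCR5, the homing receptor of follicular helper T cells and B cells, was at -0.38 and IL2RA, the high-affinity interleukin 2 receptor chain, at 0.70, with standard errors of 0.20 and 0.45.

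The 21 tested inhibitory receptor and tolerance genes had 13 positive and 8 negative members and a median of 0.05, which was -0.07 without S99. IDO1, which depletes tryptophan and thereby restrains T cells, was at 45.2 to 299 CPM in EM and 73.2 to 177 CPM in NP (log2 fold change 0.38, standard error 0.30). CD200, a ligand that quiets myeloid cells, was at -0.31 with a standard error of 0.33.

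Antigen presentation genes were among the most precisely measured. The 17 class II genes had a median log2 fold change of 0.02 and lay between -0.11 and 0.36, and the 20 class I and peptide loading genes had a median of 0.10 with 15 positive. NLRC5, the class I transactivator, was at 392 to 462 CPM in EM and 336 to 415 CPM in NP. All 6 EM libraries were above the NP median and 3 above every NP library, with a log2 fold change of 0.19 and a standard error of 0.09 (unadjusted p = 0.0541, adjusted p = 0.9998 from edgeR). CALR, a chaperone of peptide loading, was at 316 to 392 CPM in EM and 267 to 370 CPM in NP, with a log2 fold change of 0.22 and a standard error of 0.10.

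Inflammatory and innate sensing genes gave medians whose sign turned when 1 library was left out. The median was 0.03 for 31 inflammatory cytokine and NF-kB genes, 0.08 for 22 Toll-like receptor and adaptor genes, 0.01 for 16 complement genes, 0.05 for 11 chemokines and 0.11 for 18 chemokine receptors. It was -0.14 for the inflammatory and -0.01 for the Toll-like receptor list without S99, -0.11 for complement and -0.10 for chemokines without NP replicate S87, and -0.11 for chemokine receptors without EM replicate S92. TNFAIP6, an inducible matrix-binding protein, was at 15.7 and 12.5 CPM in S95 and S99 and at 1.56 to 2.86 CPM in the other EM libraries, against 1.43 to 3.33 CPM in NP. LTB, lymphotoxin beta, was at 139 to 254 CPM in EM and 203 to 292 CPM in NP. There were 4 EM libraries below every NP library, with a log2 fold change of -0.32 and a standard error of 0.17. NFKB2, a subunit of the non-canonical NF-kB pathway, had one of -0.25 with a standard error of 0.15. CCL5, a T cell and natural killer chemokine, was at 0.31 and CCR8, a receptor of type 2 and regulatory T cells, at 0.50, with standard errors of 0.39 and 0.41.

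Of 30 fatty acid and cholesterol genes 6 were positive and 24 negative, with a median of -0.14 that stayed between -0.19 and -0.08 whichever library was left out. An unadjusted p under 0.05 from edgeR was found for 2 positive genes, CPT1A and PDK4, and 1 negative gene, INSIG1. The share at that level was 1.71% over all genes tested and 1.78% over the tested genes of all lists, and this list was among 33 looked at. CPT1A, which carries long-chain fatty acids into mitochondria for oxidation, was at 181, 197, 157, 172, 214 and 59.2 CPM in EM replicates S88, S90, S92, S95, S99 and S103 and at 60.7, 87.99, 97.9, 95.6, 87.5, 140 and 98.6 CPM in NP replicates S86, S87, S93, S96, S101, S104 and S106. Of the EM libraries 5 lay above every NP library, and S103 below every one. The log2 fold change was 0.78 with a standard error of 0.23 and a 95% interval of 0.30 to 1.25 (unadjusted p = 0.00280, adjusted p = 0.9998 from edgeR). Without S103 it was 0.96, and its adjusted p of 0.351 was the lowest for this gene over the alternatives and the lowest of any gene in that fit. S103 was low in T cell, monocyte and platelet markers too. EM replicate S95 and NP replicate S87, with CPT1A at 172 and 87.99 CPM, were also low in T cell (1150 and 1210 CPM), monocyte (3470 and 2570 CPM) and platelet markers (1210 and 742 CPM). The part of the cell make-up in the CPT1A values was not tested.

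PDK4, a kinase that turns off pyruvate oxidation in fasting, was at 73.2, 93.7, 73.7, 33.1, 121.3 and 9.38 CPM in the same EM libraries and at 13.2 to 59.9 CPM in NP (median 33.3). Again S103 was below every NP library, with 4 EM libraries above. Its log2 fold change was 0.92 with a standard error of 0.40 (unadjusted p = 0.0319, adjusted p = 0.9998 from edgeR). INSIG1, which holds back sterol regulatory element-binding proteins, was at 32.4 to 56.4 CPM in EM and 37.1 to 72.2 CPM in NP, with a log2 fold change of -0.32 and a standard error of 0.15. Side by side, N libraries had 72.6 to 147 CPM of CPT1A (median 128.9) and 34.98 to 76.1 CPM of PDK4 (median 42.4).

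All 13 mitochondrially encoded genes were positive, between 0.03 and 0.24, with a median of 0.11. Without S99 it was 0.05 and 12 of the 13 were positive. ND5, a subunit of complex I, was at 2165 CPM in S99 and at 1230 to 1433 CPM in the other EM libraries, against 840.4 to 1769 CPM in NP. The median was 0.03 for 34 nuclear genes of oxidative phosphorylation, 0.06 for 23 glycolysis genes and -0.06 for 36 ribosomal protein genes. PFKFB3, an activator of glycolysis, was at 138 to 525 CPM in EM and 101.8 to 275 CPM in NP (log2 fold change 0.46, standard error 0.28).

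Cell cycle genes were positive in 28 of 30, with a median of 0.26 and leave-one-out medians of 0.14 to 0.33. The highest 2 values of CCNA2 and MKI67 in EM were those of S103 and S90. CCNA2, a cyclin of S phase and mitosis, was at 5.29 to 12.3 CPM in EM (median 8.32) and 3.44 to 8.74 CPM in NP (median 6.06), with a log2 fold change of 0.50 and a standard error of 0.24 (unadjusted p = 0.0491, adjusted p = 0.9998 from edgeR). MKI67, the proliferation antigen, was at 133 to 268 CPM in EM and 92.6 to 228 CPM in NP (log2 fold change 0.39, standard error 0.25). UBE2C, a ubiquitin-conjugating enzyme of mitotic exit, was at 0.46 with a standard error of 0.29. The summed level of the 30 cell cycle genes overlapped, at 1030 to 1610 CPM in EM and 834 to 1370 CPM in NP. Its medians were close, at 1270 CPM in EM, 1250 CPM in NP and 1260 CPM in N. Of 25 apoptosis genes 19 were positive with a median of 0.11. CDKN1A (p21), which halts the cell cycle after stress, was at 36.1, 94.4, 30.4, 44.03, 59.5 and 9.30 CPM in EM and at 9.09 to 35.6 CPM in NP, with 4 EM libraries above every NP library (log2 fold change 0.95 and adjusted p = 0.9998 from edgeR).

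Hormone and stress response genes were mixed. The 21 glucocorticoid and steroid response genes had 17 positive members and a median of 0.15, which was 0.07 without S99. The fitted values of the oestrogen receptors had opposite signs. ESR1 was at 5.72 to 10.7 CPM in EM and 2.73 to 8.27 CPM in NP (log2 fold change 0.47, standard error 0.26). ESR2, near the floor, was at 0.247 to 0.635 CPM in EM and 0.263 to 2.72 CPM in NP. Its log2 fold change was -1.17 (standard error 0.47, unadjusted p = 0.0207 and adjusted p = 0.9998 from edgeR). It rested on NP replicates S87 and S101, at 2.72 and 1.60 CPM, with the rest of NP at 0.263 to 0.794 CPM. NFIL3, a clock-linked factor that glucocorticoids and cytokines induce, was at 180 CPM in S99 and at 10.5 to 25.9 CPM in the other EM libraries. The median was 0.05 for 35 immediate early and heat shock genes, -0.06 for 16 clock genes and 0.01 for 15 prostaglandin genes, the last being -0.15 without S99. AKR1B1, a prostaglandin F synthase, was at 4.502 to 7.35 CPM in EM and 4.16 to 11.9 CPM in NP.

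Outside the lists, the genes with the smallest p had mixed patterns over the libraries. GATM, the first enzyme of creatine synthesis, was at 39.97, 15.6, 16.3, 19.4, 40.1 and 10.4 CPM in EM and at 7.95, 7.04, 19.03, 7.51, 8.17, 13.9 and 12.6 CPM in NP. All 6 EM libraries were above the NP median and 3 above every NP library, with a log2 fold change of 1.12 and a standard error of 0.35 (unadjusted p = 0.00392, adjusted p = 0.9998 from edgeR). CYB5R2, a cytochrome b5 reductase, was at 1.57 to 6.12 CPM in 5 EM libraries and 0.0823 CPM in S103, against 0.350 to 1.25 CPM in NP. Its log2 fold change was 1.96 with a standard error of 0.64. TTC7B, a scaffold of a lipid kinase complex, was at 2.12 to 12.5 CPM in EM and 0.706 to 4.48 CPM in NP (log2 fold change 1.69, standard error 0.55). Side by side, the log2 fold change of N minus NP was 0.38 for GATM, 1.81 for CYB5R2 and 1.08 for TTC7B.

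Others rested on few libraries. CAPN5, a calpain protease, had a log2 fold change of 3.77 with a standard error of 1.099. It was at 35.1 and 20.1 CPM in S95 and S103 and at 0.465 to 0.847 CPM in the other 4 EM libraries, which lay within the NP range of 0.441 to 1.26 CPM. RN7SL1, the RNA of the signal recognition particle, had one of -2.51 with a standard error of 0.69 (unadjusted p = 0.00140, adjusted p = 0.9998 from edgeR). It was at 78.7 and 112.6 CPM in NP replicates S86 and S101 and at 2.88 to 15.2 CPM in the other 5, against 3.60 to 11 CPM in EM. In S86 and S101 the top 10 genes also held the largest shares of counts, 8.16% and 9.29%, against at most 7.05% in any other library. The part of this in the RN7SL1 values was not tested. ORC5, a subunit of the origin recognition complex, was at 7.58 to 10.8 CPM in EM and 9.64 to 28.2 CPM in NP, with 28.2 CPM in NP replicate S87 (log2 fold change -0.62, standard error 0.19). STAG3, a cohesin subunit of meiosis, was at 1.81 to 14.9 CPM in EM and 6.51 to 34.01 CPM in NP (log2 fold change -1.20, standard error 0.42). PIK3R1, the regulatory subunit of phosphoinositide 3-kinase, was at 291 to 441 CPM in EM and 247 to 319 CPM in NP. Its log2 fold change was 0.24 with a standard error of 0.08. The highest EM value was that of S95, and the next, that of S90, was 345 CPM. DPAGT1, the first enzyme of N-linked glycan assembly, was at 22.1 to 33.01 CPM in EM and 19.7 to 24.2 CPM in NP (log2 fold change 0.28, standard error 0.09). For N minus NP the log2 fold change was 2.07 for CAPN5, -2.23 for RN7SL1 and -0.47 for ORC5. It was -1.22 for STAG3, 0.12 for PIK3R1 and 0.10 for DPAGT1. In N, CAPN5 ran from 0.316 to 11.3 CPM.

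**Figure D4:**
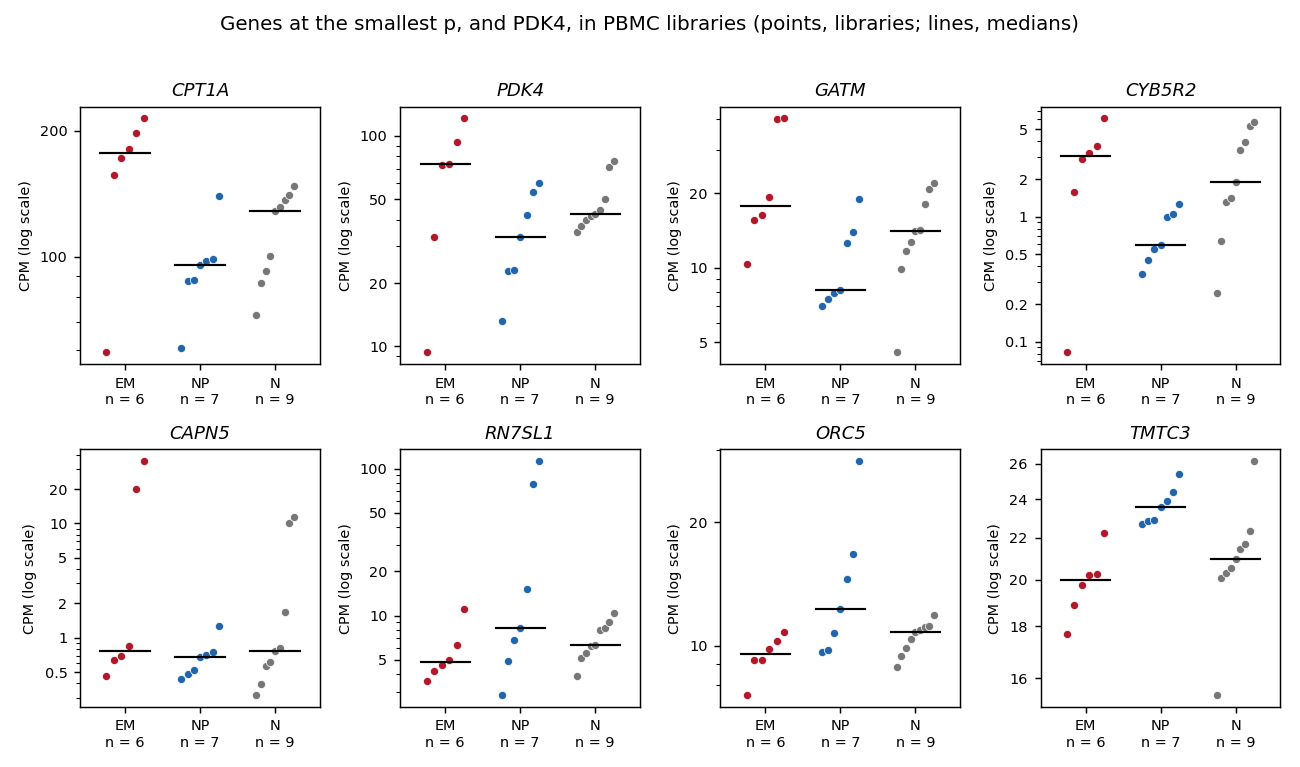
Levels in CPM (log scale) of 7 of the genes with the smallest p and of PDK4 by group; each point is a library (6 EM, 7 NP, 9 N) and the line is the median. For CPT1A and CYB5R2, 5 EM points lie above every NP point and S103 below; CAPN5 rests on 2 EM libraries at 20.1 and 35.1 CPM and RN7SL1 on 2 NP libraries at 78.7 and 112.6 CPM.

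Few genes separated the groups without overlap. Every EM library was above every NP library for 2 genes (0.0123% of genes tested) and below for 6 (0.0369%). These were named after their values were seen, apart from TMTC3. PANX1, a channel that releases ATP from cells, was at 45.8 to 49.8 CPM in EM and 39.7 to 45.02 CPM in NP (log2 fold change 0.16, standard error 0.06). IFITM2, an interferon-induced membrane protein with near-identical relatives, was at 1.28 to 2.65 CPM in EM and 0 to 1.13 CPM in NP (log2 fold change 1.26). Its standard error was 1.30 in the shared fit, where N replicate S107 had 150 CPM, and 0.47 in a fit of EM and NP alone (unadjusted p = 0.0171 and adjusted p = 1 from edgeR; 0.9998 in the shared fit). TMTC3, an endoplasmic reticulum protein of O-mannosylation, was at 17.7 to 22.2 CPM in EM and 22.7 to 25.4 CPM in NP (log2 fold change -0.26, standard error 0.09). The other 5 were LOC genes at 0.603 to 3.32 CPM on average in EM, among them LOC781741, annotated as a BAG family co-chaperone, with 1.59 to 4.14 CPM in EM and 4.15 to 5.47 CPM in NP.

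Of 14 genes with candidate fertility variants that the study kept after quality control, 13 were tested here, 8 positive and 5 negative with a median of 0.02. UMPS, which completes the synthesis of uridine monophosphate, was at 20.8 to 25.1 CPM in EM and 18.3 to 24.2 CPM in NP. All 6 EM libraries were above the NP median, with a log2 fold change of 0.15 and a standard error of 0.07 (unadjusted p = 0.0428, adjusted p = 0.9998 from edgeR). The intervals of several others excluded a 2-fold change. The log2 fold change was 0.03 for DECR1 (standard error 0.13), -0.19 for SREBF1 (0.24), -0.19 for FASN (0.21), 0.01 for BOLA-DMB (0.12), 0.05 for BLA-DQB (0.17) and -0.16 for UBD (0.18). DSC2, a desmosome cadherin, was under the filter, at 0 CPM in every EM library and at most 0.0700 CPM in NP. Counts of the BOLA genes are uncertain because their reads can be shared between copies.

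An earlier-numbered experiment, E1, read as paired ends of 100 bp, had PBMC of 3 EM, 5 NP and 7 N libraries, none of them in E2. There too EM minus NP called 0 of 11501 genes (0% called), with 374 at an unadjusted p under 0.05 from edgeR and 0 called by DESeq2. Its ISG median was 0.06 with 27 of 45 positive, and its log2 fold changes were -0.28 for ISG15 (standard error 0.66), -0.66 for MX1 (0.33), 0.06 for MX2 (0.49) and -1.11 for OAS1Y (0.84), against 1.61, 0.28, 0.89 and 1.31 in E2. CPT1A was at -0.07 (0.33) and GATM at 1.33 (0.54) in E1. The level of CPT1A was unlike, averaging 163.5 and 95.5 CPM in EM and NP of E2 and 8.60 and 9.30 CPM in those of E1. Other genes described above were in E1 at 1.67 (0.84) for CAPN5, 0.86 (0.76) for TTC7B and 0.74 (0.42) for DPAGT1. CYB5R2 was there at 0.21 (0.78), STAG3 at 0.15 (0.61), TMTC3 at 0.42 (0.90) and PIK3R1 at -0.31 (0.55). Cell cycle genes were positive in 29 of 30 with a median of 0.66, platelet markers in 11 of 11 with a median of 1.04, and T cell markers in 23 of 24 with a median of 0.54. Natural killer and cytotoxic genes were positive in 19 of 20 (median 0.64) and B cell markers in 1 of 20 (median -0.50). Its 6 tested mitochondrially encoded genes had 0 positive members and a median of -5.95, against 0.11 over the 13 tested in E2. ND5 averaged 2716 CPM in the EM and 183300 CPM in the NP libraries of E1 (log2 fold change -6.08, standard error 2.13). The make-up of the E1 libraries thus differed widely, and the part of this in the other E1 values was not tested. The difference between the experiments was not tested, because their tables were made from different read layouts and normalised apart.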

How the data were processed

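PBMC RNA was sequenced as TruSeq Stranded mRNA libraries, with 75 bp single-end reads in E2. What the authors deposited is a table of raw read counts, 1 row per gene. The table is marked with the genome build ARS-UCD 1.2, and the aligner and counter for PBMC are not given in the sources used here. Of 35186 rows, 28 were second copies of a gene with the same values and were left out.

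Tests used edgeR 4.0.16 under R 4.3.3: filterByExpr with a minimum count of 10 (16269 genes kept), TMM factors, and the quasi-likelihood test on EM, NP and N with the contrast EM minus NP and Benjamini-Hochberg adjustment at 0.05. A standard error is the log2 fold change over the square root of F, and the 95% interval uses the degrees of freedom of the fit. Alternatives were DESeq2 1.42.0, limma 3.58.1 voom with sample weights, RLE factors, other filters, a fit of EM and NP alone, a robust spread and leaving out each library; leaving out EM replicates S99 and S103 together was added after seeing the data. E1 (11501 genes) was fitted apart. Its 7625 rows with a blank or repeated symbol were not matched to E2 genes, and 2 columns of samples with conflicting labels were not used. Names in the E2 table are gene symbols, and no coordinates are given. Every pair of libraries of a group differed beyond sampling noise (chi-square per degree of freedom of 14.1 or more).

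The comparison, the 34 gene lists and the named genes were chosen with earlier results of these data known. The rule for named genes took the 10 smallest p in each direction with a symbol other than LOC and at least 1 CPM in the higher group, from every list the 3 tested genes of smallest p, and a fixed set of interferon, lineage and candidate genes. IFIT1 of that set was not matched by symbol and is not used here. Some other genes of that set are not reported here.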

Additional observations from a re-analysis of the deposited data

Results flagged for a closer look

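A library was marked where the gap between the highest or the lowest value of a group and its nearest neighbour, divided by the whole range of the group, passed Dixon's 95% critical value. This was done on log2 CPM, with 0.1 added, of 147 named genes and 34 list sums, and on totals and detected genes, in EM and NP, 366 groups of values in all. Chance marks about 1 in 20, and 19 were marked. Of these 10 fell on EM replicate S99 and 5 on EM replicate S103.

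EM replicate S99 was the highest for HERC5 (129.7 CPM, next 47.6, ratio 0.802), TIRAP (52.1, next 31.7, ratio 0.8545), CD46 (393, next 266, ratio 0.751), NFIL3 (180, next 25.9, ratio 0.683) and ND5 (2165, next 1433, ratio 0.73), and the lowest for SREBF1 (22.9, next 54.4, ratio 0.793). It was also the highest for the summed ISG (8900 CPM, next 4240, ratio 0.738), interferon receptors and signalling (6670, next 4570, ratio 0.669), Toll-like receptors and adaptors (2550, next 1790, ratio 0.684) and apoptosis genes (3980, next 2820, ratio 0.665). Its summed granulocyte markers were at 7630 CPM beside 599 to 2780 CPM in the other EM libraries, and N replicate S107, with 6220 CPM, was the only other library above 3520 CPM. The part of this in the values above was not tested.

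EM replicate S103 was the lowest for CPT1A (59.2 CPM, next 157, ratio 0.76), CYB5R2 (0.0823, next 1.57, ratio 0.627), GNG11 (4.85, next 84.7, ratio 0.63), PPBP (0.247, next 8.37, ratio 0.62505, barely past the critical value) and the summed chemokines (61.1, next 155, ratio 0.628). EM replicate S95 was the highest for DECR1 (19.99 CPM, next 14.5, ratio 0.638). In NP, S101 was the highest for CXCR5 (32.8 CPM, next 23.04, ratio 0.596), S87 the lowest for CCR8 (7.57, next 13.6, ratio 0.57) and S86 the highest in total counts (18285148, next 14212088, ratio 0.571).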

How the results depend on the processing

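The count of 0 called genes held under each of the 21 alternatives of E2 and each of those of E1. In E2 the smallest adjusted p ranged from 0.264, without EM replicates S99 and S103 (an alternative added after seeing the data), to 1. It was 0.418 with DESeq2, 0.351 without EM replicate S103 and 0.455 without NP replicate S96. Genes at an unadjusted p under 0.05 numbered 278 as reported, 749 among 26424 genes without a filter, 217 with EM and NP alone, and 250 to 520 when 1 library was left out. Of 3056 pairs of a named gene and an alternative, 2967 kept the sign, 89 in 31 genes did not, 48 moved by more than 1 standard error, and 0 were called. RLE factors moved the median of all genes by 0.01. No paired analysis was possible because the libraries of EM and NP carry different numbers and the labels do not name the cows. Depth limited genes under 1 CPM most, with 33.3% of their intervals within a 2-fold change.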
